A study of Drosophila melanogaster with 2 samples.

Results

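The tetraspanin genes of Drosophila melanogaster were examined in polyadenylated RNA of whole adult females and males. A gene was taken as a member when its name in the deposited annotation was Tsp followed by a number, and late bloomer (lbm), a tetraspanin gene with another name, was added. This gave 35 of the 19391 loci in the expression table. Of these, 18 lie side by side at cytological position 42E of arm 2R and are called the 42E cluster (Tsp42Ea to Tsp42Er, with lbm inside the series). The other 17 are spread over the X, 2L, 2R, 3L and 3R.

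The 2 libraries came from lines of the Drosophila Genetic Reference Panel (DGRP), inbred lines drawn from a natural population. In each sex, 200 ng of total RNA of each of 192 lines went into a pool, which made 1 female and 1 male library. The flies were 3 to 5 days old, the labels name no treatment, and both sexes came from the same panel, reared on the same medium at the same temperature. With 1 library per sex, no difference below has a replicate check and no p-value is given, and pooling removes any information on single lines.

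Tetraspanins are small membrane proteins that cross the membrane several times and carry a short and a long extracellular loop. They bind one another and other membrane proteins, such as integrins and proteases, and gather them in patches of membrane or help to move them between the surface and endosomes. In flies, members of the family have been studied in motor neurons, gut junctions, photoreceptors and Notch signalling. Many genes of the 42E cluster have no assigned function.

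Levels are given in FPKM, a unit that divides fragments by transcript length and by the size of the library. The family held a nearly equal part of both libraries. Its summed level was 1080 FPKM in the female library, which is 0.161% of the whole library, and 1511 FPKM in the male library, which is 0.159%. At least 1 FPKM was listed for 28 of the 35 members in the female library and for 33 in the male library. Of all 19391 loci, 10189 and 13724 did, and of the 15887 annotated genes 9899 and 12800 did. The median member had 15.5 FPKM in females and 25.9 FPKM in males, while the median over all loci was 1.46 and 6.72 FPKM. All members are annotated genes, and the median over annotated genes was 5.85 and 11.4 FPKM.

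A large part of the signal came from 5 members in each library. In the female library Tsp42Ee alone gave 19.9% of the family's summed FPKM, and Tsp42Ee, Tsp29Fb, Tsp29Fa, Tsp66E and Tsp42Ea together gave 49.8%. In the male library Tsp29Fb gave 15.7%, and Tsp29Fb, Tsp42Ee, Tsp42Ea, Tsp42Ed and Tsp29Fa gave 51.4%. Thus 4 of the 5 highest members were shared by the sexes, with Tsp66E replaced by Tsp42Ed in males. Tsp42Ee ranked 421 of all loci in the female and 660 in the male library, and Tsp29Fb ranked 953 and 608.

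The sexes were compared by log2((female FPKM + 1)/(male FPKM + 1)), called the log2 ratio, which is positive when females are higher and understates the change of low genes. A locus was counted when it had at least 1 FPKM in 1 library, and called higher in a sex at a log2 ratio of at least 1, which is 2-fold. Of 33 members counted, 3 were at least 2-fold higher in females and 14 at least 2-fold higher in males. Over all 14108 loci counted, 21.5% were at least 2-fold higher in females and 40.7% at least 2-fold higher in males. As deposited, the male count of the members was thus close to the background share, and the female count was below it. The male part of this depended on the settings. With at least 1 FPKM required in both libraries, 11 of 28 members were at least 2-fold higher in males, against 24.3% of all loci. The median log2 ratio of the members was −0.87, against −0.58 over all loci, a gap of 0.29. The gap was 0.60 with a minimum of 5 FPKM in 1 library and 0.99 with 1 FPKM in both, where the medians were −0.83 and 0.17. It shrank to 0.18 when 0.1 in place of 1 was added to each FPKM value. In that setting 16 of 33 members were at least 2-fold higher in males, against 45.3% of all loci.

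The counts also depended on how the libraries were scaled. With both libraries set to the same sum, 5 members were at least 2-fold higher in females and 7 in males, against 31.3% and 30.9% of all loci. With ribosomal protein genes set to equal medians, 0 and 26 of 34 members were, against 8.41% and 58.0% of all loci. Tsp42Ep reached 1 FPKM under this scaling, and among the 33 members counted as deposited 25 were higher in males. With the median ratio of loci at 1 FPKM in both libraries set to 0, 3 and 18 were, against 18.4% and 44.4%. A further scaling, chosen after seeing the data, set the median log2 ratio of 14 neuron, photoreceptor and muscle markers to 0. It turned the balance around, with 13 members at least 2-fold higher in females and 3 in males, against 51.3% and 16.1% of all loci. The median of all loci was −0.09 with equal sums, −1.29 with ribosomal protein genes equal, −0.75 with the median ratio at 0 and 1.05 with the markers at 0. The family median was −0.36, −1.78, −1.03 and 0.76. Under these scalings and as deposited it lay below that of all loci by 0.28 to 0.49. The directions given below are those of the deposited values unless another scaling is named, and with the markers at 0 all but 6 of the 33 members had positive log2 ratios.

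Across the 33 members the female and male levels had a Pearson r of 0.71 on log2(FPKM + 1) and a Spearman rho of 0.70, against 0.47 and 0.44 over all loci. Genes in a pair of libraries are not independent replicates, so these are descriptions.

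**Figure D1:**
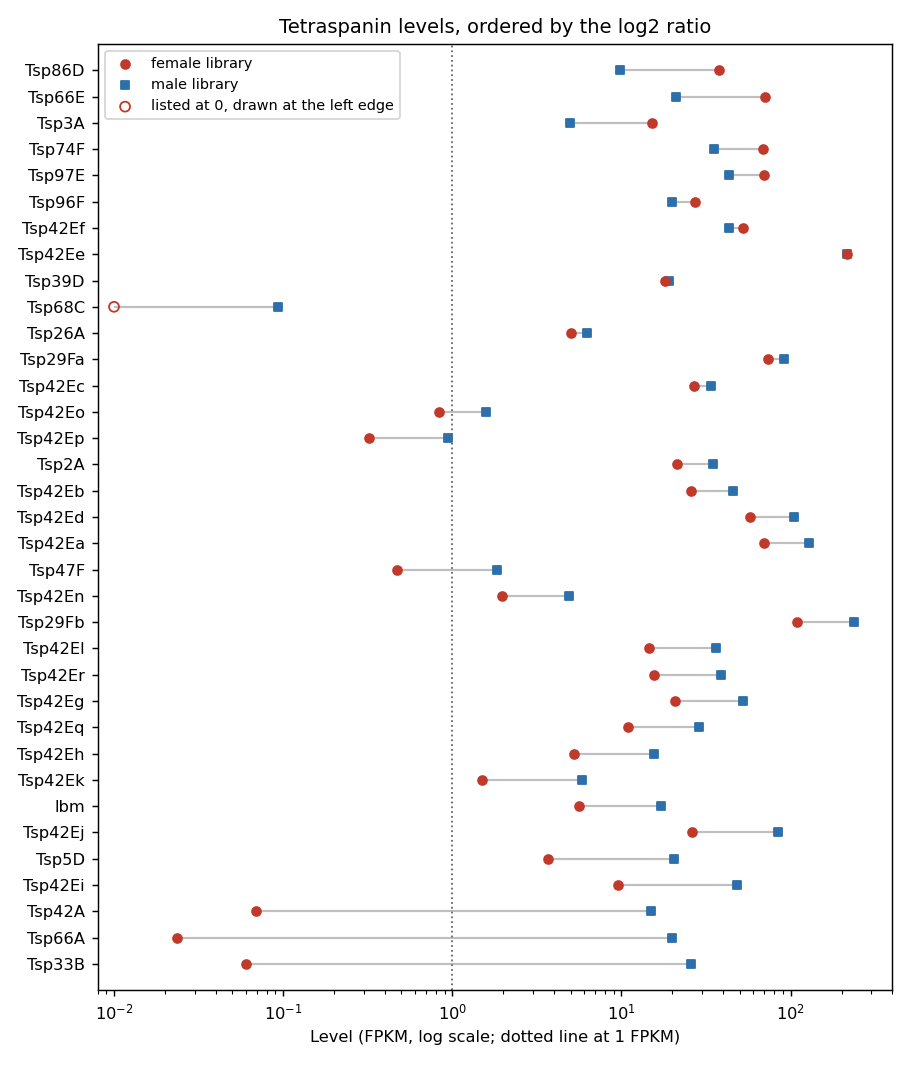
Level of each of the 35 tetraspanin genes in FPKM (log scale) in the female (circles) and male (squares) library, 1 point per library, ordered by the log2 ratio. Tsp42Ee lies at 215 FPKM in both libraries, while Tsp33B, Tsp66A and Tsp42A lie below 0.1 FPKM in females and at 14.9 to 25.9 FPKM in males.

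The 3 members at least 2-fold higher in females were Tsp86D, Tsp66E and Tsp3A, and with ribosomal protein genes set equal their log2 ratios stayed above 0 but below 1. Tsp86D (3R, 6694430 to 6696277 in BDGP5, plus strand) had 37.7 FPKM in females and 9.78 FPKM in males, a log2 ratio of 1.84. Tsp66E (3L, 8905599 to 8925165) stood at 70.5 FPKM and 21.0 FPKM (log2 ratio 1.70). Tsp3A (X, 2511791 to 2513771) stood at 15.2 FPKM and 5.00 FPKM (log2 ratio 1.43). Tsp86D and Tsp3A belong, with Tsp26A, to the fly members of the tetraspanin group that binds the metalloprotease Kuzbanian and aids its exit to the cell surface. Tsp26A (2L, 6000228 to 6003738) did not share the female excess, with 5.01 and 6.22 FPKM and a log2 ratio of −0.26, or 0.16 with both libraries set to the same sum.

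Genes of the pathway in which these members act lay mostly on the female side, with 7 of 9 above 0 as deposited and 5 of 9 with ribosomal protein genes set equal. Of the 9 genes for Kuzbanian and Notch signalling, 5 were at least 2-fold higher in females and 2 in males, with a median log2 ratio of 1.02 that became 0.08 under that scaling. As deposited, 5683 of all 14108 counted loci were above 0, and 21.5% and 40.7% were past 2-fold in females and males. The counts of the 9 genes were 7 and 0 with equal sums, against 31.3% and 30.9% of all loci. They were 2 and 2 with ribosomal protein genes set equal (8.41% and 58.0% of all loci). With the markers at 0 they were 7 and 0 (51.3% and 16.1% of all loci). The protease gene kuz itself stood at 34.3 and 7.43 FPKM (log2 ratio 2.06). The Notch ligand gene Dl stood at 35.1 and 3.44 FPKM (log2 ratio 3.03), and the receptor gene N at 8.99 and 3.49 FPKM (1.15). The other 2 genes past 2-fold as deposited went the opposite way: Kul, a relative of kuz, at 3.82 and 8.82 FPKM (−1.03), and Ser, the other Notch ligand gene, at 0.338 and 2.16 FPKM (−1.24). Both fell short of 2-fold with equal sums (−0.58 and −0.91) and were positive with the markers at 0 (0.60 and 0.39). Subunits of gamma-secretase, the protease that cuts Notch inside the membrane, lay between these extremes, with log2 ratios of 1.29 for nct, 1.02 for aph-1, 0.61 for Psn and 0.58 for pen-2, the last pair turning negative (−0.34 and −0.35) with ribosomal protein genes set equal. With these libraries made from whole flies, more cells of a type and more RNA per cell cannot be told apart.

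Ovary markers moved in the same direction, and their part in these differences was not tested. All 6 of them (vas, nos, osk, bam, orb and otu) had positive log2 ratios, 5 of at least 1, and their summed level was 1170 FPKM in females and 149 FPKM in males, with none at 0. The level of osk alone was 579 and 9.95 FPKM. The log2 ratio of orb, which has a testis form as well, was 0.24, and −0.72 with ribosomal protein genes set equal.

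A further 3 members outside the cluster had log2 ratios between 0 and 1, and all 3 changed sign with ribosomal protein genes set equal. Tsp74F (3L, 17884920 to 17888962) had 68.3 FPKM in females and 35.2 FPKM in males, a log2 ratio of 0.94. Tsp97E (3R, 22786786 to 22790539) had 70.0 and 43.3 FPKM (0.68), and Tsp96F (3R, 21698622 to 21707149) had 27.2 and 19.8 FPKM (0.44). The 3 members on 3R thus all had the higher value in the female library as deposited, as did Tsp66E and Tsp74F on 3L. Tsp66A, also on 3L, went the other way (−4.35), as did the 5 members on 2L. With equal sums, Tsp39D (0.41), Tsp26A (0.16) and Tsp29Fa (0.18) on 2L became positive.

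The members on 2L include a neighbouring pair, Tsp29Fa (8933964 to 8936096) and Tsp29Fb (8937390 to 8939746), on the same strand and 1293 nt apart. Tsp29Fa had 73.1 FPKM in females and 91.5 FPKM in males, a log2 ratio of −0.32 that became 0.18 with both libraries set to the same sum. Tsp29Fb stood at 109 and 238 FPKM (log2 ratio −1.12, and −0.61 with equal sums). The pair was thus high in both sexes, and the log2 ratios of the neighbours lay 0.80 apart. Tsp39D (21344607 to 21358271), with 18.0 and 19.0 FPKM, was nearly level between the sexes at −0.07, and this became 0.41 with equal sums.

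The largest differences of the family belonged to 3 members that were almost confined to the male library. Tsp33B (2L, 11791025 to 11792365, minus strand) had 0.0601 FPKM in females and 25.9 FPKM in males, a log2 ratio of −4.67. Tsp66A (3L, 7458609 to 7461908) had 0.0236 and 19.9 FPKM (−4.35), and Tsp42A (2R, 1682918 to 1684215) had 0.0688 and 14.9 FPKM (−3.90). The female value was 0.232% of the male one for Tsp33B, 0.119% for Tsp66A and 0.462% for Tsp42A. All 3 were more than 2-fold higher in males as deposited and under each of the 4 other scalings, the one on the markers included. Tsp42A lies 1.2 Mb before the 42E cluster and is not part of it.

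The value of Tsp66A cannot be separated from those of a pair of overlapping models on the same strand. All of its exonic bases also belong to exons of CG42661, which had 0.0187 FPKM in females and 33.5 FPKM in males. CG42660 shares 2531 nt, or 97.5%, of them, and no level is listed for it. How fragments were divided between these models is not given in the sources used here. Neither Tsp33B nor Tsp42A shares exonic bases with another gene.

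Markers of male reproductive tissue showed differences of the same direction, and their part in the values of Tsp33B, Tsp66A and Tsp42A was not tested. All 6 testis markers (can, aly, dj, Mst87F, bol and betaTub85D) were at least 2-fold higher in males, with a summed level of 16.7 FPKM in females and 2574 FPKM in males. The 5 accessory gland markers had sums of 2.60 and 4933 FPKM. None of the 11 was at 0 in either library. The meiotic arrest genes can and aly, which act in spermatocytes, had male levels of 7.10 and 4.99 FPKM and female levels of 0.0266 and 0.0185 FPKM. Among these markers they were the nearest to the male levels of Tsp42A, Tsp66A and Tsp33B. Their log2 ratios of −2.98 and −2.56 were less negative than those of these members.

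The 42E cluster spans 73438 nt of 2R (2880181 to 2953618), with 15 genes on the plus and 3 on the minus strand. Of its 18 genes, 17 reached 1 FPKM in 1 library. None was at least 2-fold higher in females and 9 were in males. Of the 2775 loci of arm 2R counted, 19.8% and 42% were, so both counts can be read against these shares. The median log2 ratio was −1.24, against −0.29 for the 16 members counted outside the cluster, whose values spread far more widely. The cluster values ran from −2.23 to 0.27 and the others from −4.67 to 1.84. The median of the outside members changed sign with equal sums, to 0.17. The cluster median stayed negative under the 4 planned scalings, the deposited values among them, and became 0.39 with the markers at 0, where the outside median was 1.34.

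Along the cluster, genes at the start were by the median higher in level and nearer to equal between the sexes than those that follow. The 6 genes from Tsp42Ea to Tsp42Ef were high in both libraries, from 25.9 to 215 FPKM in females and from 34.0 to 215 FPKM in males, and none of them differed by 2-fold. Their median level was 54.8 FPKM in females and 75.0 FPKM in males. The 12 genes from Tsp42Eg to Tsp42Er had lower medians, of 7.56 and 22.9 FPKM. Their levels reached 26.0 FPKM in females and 83.7 FPKM in males, so the ranges overlapped. Of the 11 counted among them, 9 were at least 2-fold higher in males, and all 11 log2 ratios were negative. With the markers at 0, Tsp42Ei and Tsp42Ej were the negative ones among them. The median log2 ratio was −0.56 in the first stretch and −1.31 in the second. This division was made after the values were seen and is a description.

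Within the first stretch, Tsp42Ea (2880181 to 2891764) had 70.1 FPKM in females and 129 FPKM in males, a log2 ratio of −0.87. Its intron holds Tsp42Eb (2886353 to 2887353), which had 25.9 and 45.5 FPKM (−0.79). The host and the gene inside it differed in level but hardly in log2 ratio. Tsp42Ec had 26.9 and 34.0 FPKM (−0.33, and 0.16 with equal sums), and Tsp42Ed, on the minus strand, had 57.2 and 104 FPKM (−0.86). Tsp42Ee (2899759 to 2905867), the highest tetraspanin in females, stood at 215 FPKM in both libraries. Its log2 ratio of 0.01 became 0.51 with equal sums and −0.96 with ribosomal protein genes set equal, so its direction was set by the scaling. Tsp42Ef, with 52.4 and 43.4 FPKM, had the highest log2 ratio of the cluster at 0.27, or −0.69 with ribosomal protein genes set equal.

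Between Tsp42Ef and Tsp42Eg, which lie 828 nt apart, the log2 ratio dropped from 0.27 to −1.30, since Tsp42Eg had 20.6 FPKM in females and 52.2 FPKM in males. Tsp42Eh followed with 5.21 and 15.5 FPKM (−1.41). Tsp42Ei (2922630 to 2924454) had 9.52 and 48.4 FPKM, and its log2 ratio of −2.23 was the lowest of the cluster. Tsp42Ej (2927641 to 2930267) was the highest gene of the second stretch, with 26.0 and 83.7 FPKM (−1.65). Tsp42Ei, Tsp42Ej and their neighbour Tsp42Ek, with 1.49 and 5.85 FPKM (−1.46), were at least 2-fold higher in males under the 4 planned scalings, while with the markers at 0 their log2 ratios were −0.60, −0.02 and 0.17. The other genes of this stretch past 2-fold lost that call with equal sums. Tsp42Ek shares 107 nt, or 8.89%, of its exonic bases with Tsp42Ej on the same strand. Its low values may thus hold fragments of Tsp42Ej, and its log2 ratio with equal sums was −1.04.

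The end of the cluster held its lowest genes. Tsp42El had 14.6 and 36.0 FPKM (−1.24), and lbm 5.60 and 17.2 FPKM (−1.47). Levels then went down over 3 neighbours: Tsp42En had 1.96 and 4.90 FPKM, just short of 2-fold on the log2 ratio scale, Tsp42Eo had 0.835 and 1.57 FPKM, and Tsp42Ep had 0.321 and 0.937 FPKM. Tsp42Eo and Tsp42Ep overlap on opposite strands by 191 exonic nt, and the use of strand is not stated, so their values may hold fragments of each other. The last genes were higher again, Tsp42Eq with 10.9 and 28.5 FPKM (−1.31) and Tsp42Er with 15.5 and 39.0 FPKM (−1.28).

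**Figure D2:**
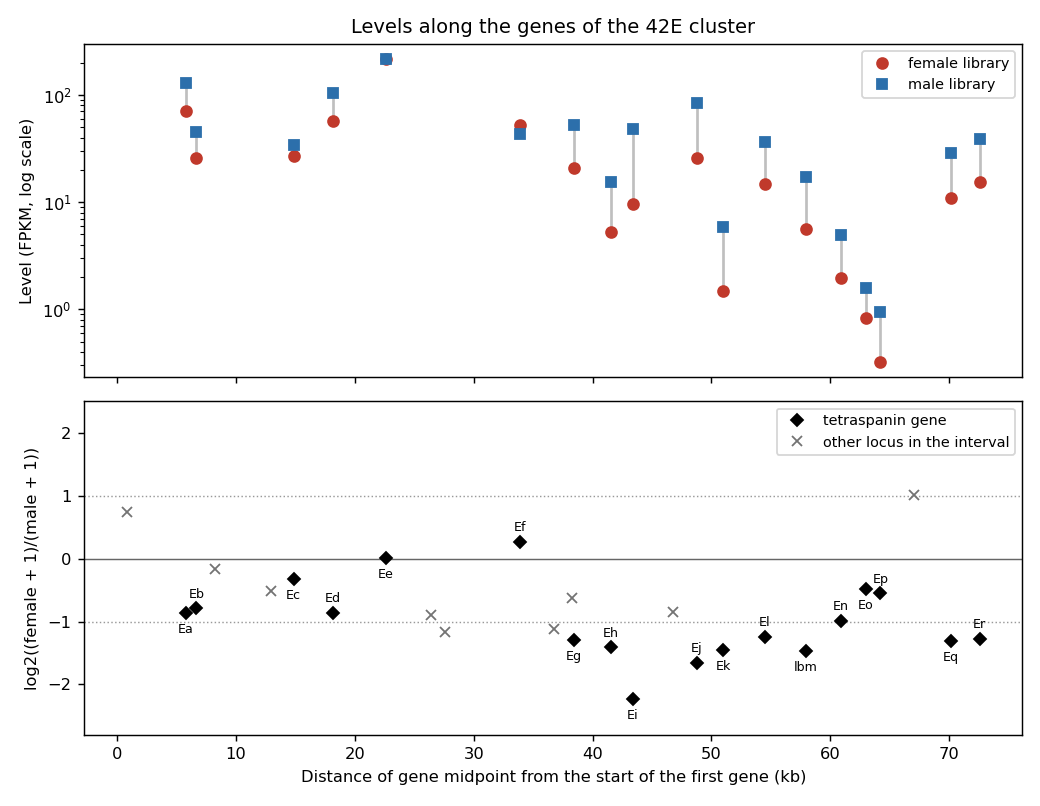
Top, level in FPKM (log scale) of the 18 genes of the 42E cluster in the female (circles) and male (squares) library against distance from the cluster's start in kb. Bottom, their log2 ratios (diamonds) and those of other counted loci in the interval (crosses), with dotted lines at 2-fold. The 6 genes on the left lie between the dotted lines, and most genes from Eg onward lie below −1.

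Of the 9 other counted loci in the same interval, 7 had negative log2 ratios, as did 1726 of the 2775 counted loci of arm 2R. Over that arm 42% were at least 2-fold higher in males and 19.8% in females. In the interval 2 were in males (CG43647 at −1.16 and the unnamed locus XLOC_001829 at −1.12) and 1 was in females. That one, the glycosyltransferase gene pgant3 between Tsp42Ep and Tsp42Eq, had 19.0 FPKM in females and 8.92 FPKM in males, a log2 ratio of 1.01. CG30159, whose exons overlap those of Tsp42Ea by 97 nt, had 47.2 and 28.0 FPKM (0.73). CG30160, after Tsp42Ea, had 25.8 and 37.3 FPKM (−0.52). The annotated gene before the cluster, CG17002, had 21.6 and 6.81 FPKM (1.53), and the one after it, CG12836, was under 1 FPKM in both libraries.

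Some members are known from particular tissues, and their values can be set beside those tissues' markers. Tsp2A (X, 1240586 to 1242176) encodes a component of the smooth septate junction, the seal between gut epithelial cells. It had 21.2 FPKM in females and 34.6 FPKM in males, a log2 ratio of −0.68. Its junction partners Ssk and mesh had 48.7 and 108 FPKM (−1.14), and 24.4 and 34.5 FPKM (−0.48). All 3 components thus had the higher level in males as deposited, while mesh stood at 0.01 with equal sums. The 6 midgut markers (alphaTry, betaTry, Mal-A1, Jon65Aiv, Amy-p and LysX) had a median log2 ratio of −0.82, with 2 at least 2-fold higher in males, and summed levels of 5750 and 10152 FPKM with none at 0. Their part in the values of Tsp2A was not tested.

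The gene Tsp42Ej, also named sunglasses, encodes a lysosomal tetraspanin needed for the breakdown of rhodopsin in photoreceptors. Its log2 ratio of −1.65 lay near those of the photoreceptor markers, which had a median of −1.59. Those markers (ninaE, norpA, trp, Arr1 and Arr2) were at least 2-fold higher in males in 4 of 5 cases, with norpA at −0.52, and their summed level was 1466 and 4413 FPKM with none at 0. The gene lbm acts in motor neurons, where its loss delays synapse formation on larval muscle. Its log2 ratio of −1.47 lay near the median of −1.49 of the 5 neuron markers (elav, nSyb, Syt1, brp and Syn), all at least 2-fold higher in males, with sums of 65.2 and 218 FPKM and none at 0. Single markers of other tissues lay as near, although the midgut median was −0.82. The midgut marker Mal-A1 (−1.61) and the neuron marker Syt1 (−1.67) were as near to Tsp42Ej, and the midgut marker Amy-p (−1.48) to lbm. The cluster gene Tsp42Ek (−1.46) lay near lbm too. Whether these tissues carry the signal of either gene was not tested.

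The 4 muscle markers (Mhc, up, wupA and Act88F) had a median log2 ratio of −1.88 and sums of 411 and 1518 FPKM, none at 0. Over the 14 neuron, photoreceptor and muscle markers the median was −1.63, and only 6 of the 33 tetraspanins counted had a lower log2 ratio. These were Tsp33B, Tsp66A, Tsp42A, Tsp42Ei, Tsp5D and Tsp42Ej. Tsp5D (X, 5963164 to 5968890) had 3.70 FPKM in females and 20.6 FPKM in males, a log2 ratio of −2.20, and stayed past 2-fold under the 4 planned scalings but stood at −0.57 with the markers at 0. Tsp5D and Tsp42Ei came next in male excess after the 3 members near-absent in females, and their order depended on the pseudocount. With 0.1 FPKM their log2 ratios were −2.44 and −2.33. The remaining tissue markers had medians of −0.86 for haemocytes (4 of 5 counted, sums of 15.9 and 33.7 FPKM), −1.01 for Malpighian tubules (3 genes, sums of 50.2 and 119 FPKM) and −0.76 for fat body (3 of 4 counted, sums of 4549 and 886 FPKM, most of the female sum from Yp1), with none at 0.

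Few members were low throughout. Tsp68C (3L, 13836756 to 13838416) was at a listed 0 in females and had 0.0930 FPKM in males, so no ratio is given. Together with Tsp42Ep it was not counted. Tsp47F (2R, 7264698 to 7266682) stood at 0.472 and 1.83 FPKM (−0.95). The number of fragments behind such values is unknown.

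Genes of other systems in which tetraspanins take part had medians nearer to 0 than the family median of −0.87 as deposited. The median was −0.58 over all loci, close to that of the integrin genes, and −0.29 for the members outside the cluster. Of 5 integrin genes counted out of 7, 1 was at least 2-fold higher in males, if, with 10.5 and 28.7 FPKM (−1.37), and the median log2 ratio was −0.52. The main beta subunit gene mys had 54.4 and 40.4 FPKM (0.42, and −0.53 with ribosomal protein genes set equal). Of 11 genes of multivesicular bodies and exosomes, vesicles that are rich in tetraspanins, 2 were higher in females by 2-fold and 2 in males, with a median of 0.13. Rab27 (10.4 and 2.24 FPKM, 1.81) and Rab35 (68.1 and 21.1 FPKM, 1.64) were the former, and TSG101 (39.2 and 113 FPKM, −1.50) and Vps28 (31.2 and 75.8 FPKM, −1.26), both of the sorting complex that binds ubiquitin, were the latter. Of 10 other septate junction genes, 2 were higher in females by 2-fold, l(2)gl (1.63) and Mcr (1.38), and none in males, with a median of 0.23. The integrin median was −1.45 with ribosomal protein genes set equal, −0.05 with equal sums and −0.69 with the median ratio at 0, and it turned positive (1.11) with the markers at 0. The sides of the other two depended on the planned scalings too: the vesicle and septate junction medians were −0.82 and −0.72 with ribosomal protein genes set equal, and 0.62 and 0.72 with equal sums. The counts moved as well, and so did the shares of all loci. Of all loci, 21.5% and 40.7% were higher by 2-fold in females and males as deposited, and 31.3% and 30.9% with equal sums. These shares were 8.41% and 58.0% with ribosomal protein genes set equal, and 51.3% and 16.1% with the markers at 0. Of the vesicle genes, 4 and 0 were higher in females and males with equal sums, 1 and 3 with ribosomal protein genes set equal, and 9 and 0 with the markers at 0. Of the septate junction genes, 0 and 4 were with ribosomal protein genes set equal, and 9 and 0 with the markers at 0. Of the integrin genes, 0 and 4 were with ribosomal protein genes set equal, and 3 and 0 with the markers at 0.

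**Figure D3:**
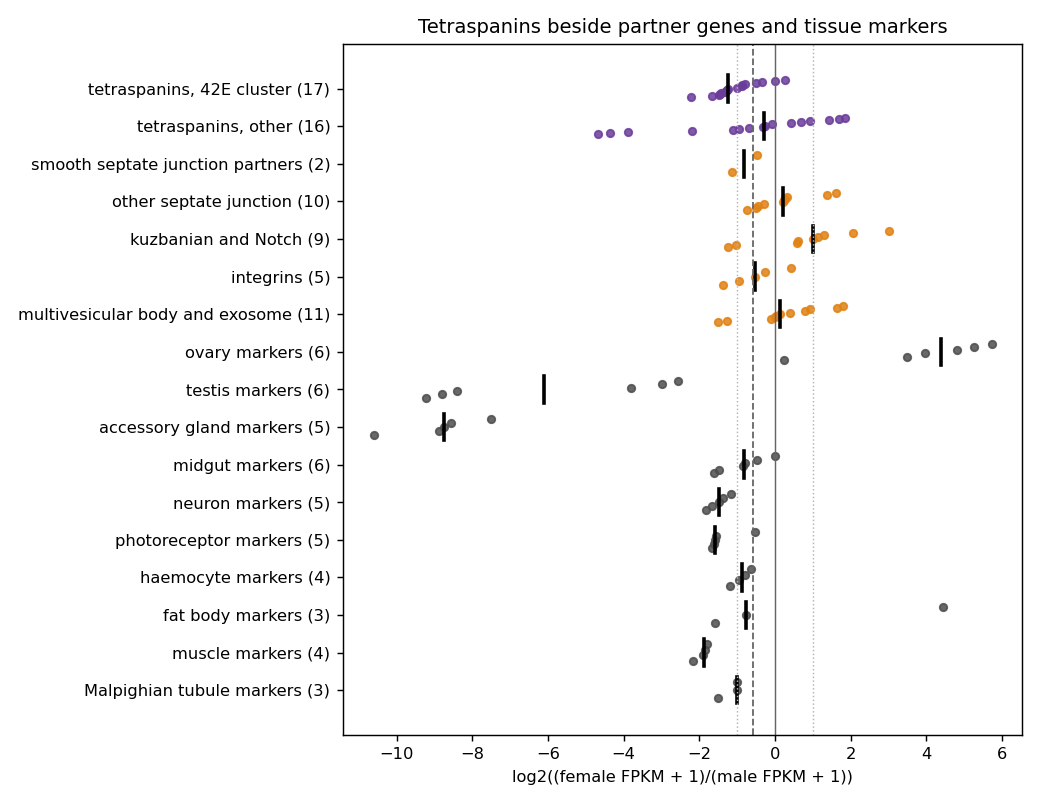
Log2 ratio of each counted gene (points) in the tetraspanin groups, partner lists and tissue marker lists, with the number of genes in parentheses and a bar at each median. Dotted lines mark 2-fold and the dashed line the median of all loci (−0.58). The values of the 42E cluster (−2.23 to 0.27, median −1.24) overlap those of most lists, though not the testis or accessory gland markers. Marker lists overlapped include muscle (median −1.88), photoreceptor (−1.59), neuron (−1.49), Malpighian tubule (−1.01), haemocyte (−0.86) and midgut (−0.82). The other tetraspanins spread from −4.67 to 1.84.

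The genes of the cluster also shared a gene structure that the choice of members did not use. Taking the transcript with the longest coding sequence, the 18 cluster genes encode 209 to 251 codons (median 222), and the 17 others 229 to 363 codons (median 268). All 18 have 3 to 5 coding exons, 11 of them 5. The first coding exon is exactly 60 nt long in 15 of the 18, against 0.738% of 10983 coding genes with 2 or more coding exons. The last coding exon is exactly 72 nt long in 10 of them, against 0.373% of those genes. Only 10 genes of the annotation have both lengths, and 9 of them are in the 42E cluster. The tenth is CG32441, which is not a member.

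In the cluster each of the 63 boundaries between coding exons falls between codons, and among the members outside it 39 of 43 do. Over all coding genes this holds for 41.8% of 41031 boundaries. The shared frame extends to most of the dispersed members, while the exon lengths do not: a first coding exon of 60 nt was found in 1 outside member, Tsp97E, and a last one of 72 nt in none. The exceptions in frame were Tsp86D, Tsp3A and Tsp5D. Of these, Tsp86D and Tsp3A are both in the Kuzbanian-binding group and both at least 2-fold higher in females, while Tsp26A of that group keeps each boundary between codons. Tsp2A and Tsp42A have a single coding exon.

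**Figure D4:**
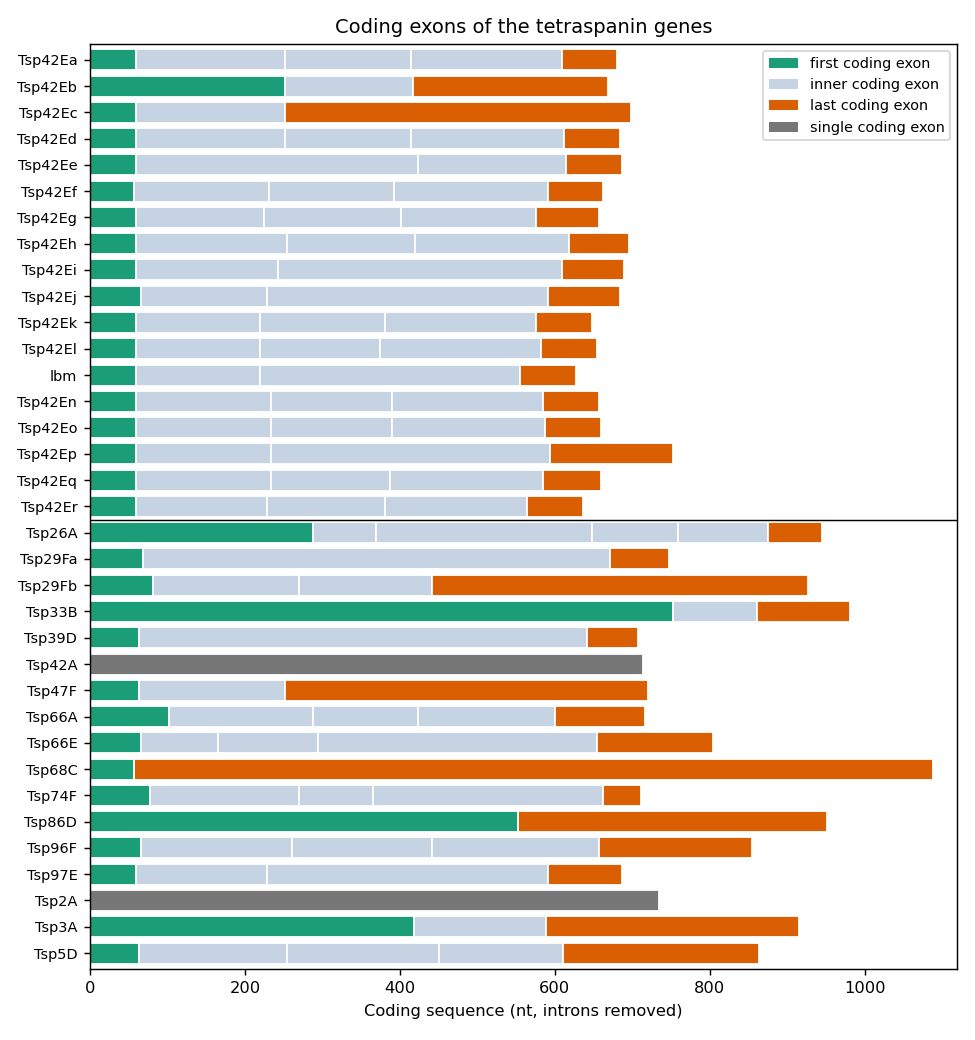
Coding exons of the 35 tetraspanin genes drawn to scale in nt with introns removed, the 18 genes of the 42E cluster above the line and the 17 others below. The first coding exon (green) measures 60 nt in 15 of the 18 cluster genes, and the genes below the line vary more in total length and in where they are divided.

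Overlap with other genes limited some values. Exonic bases were shared with another gene by 11 of the 35 members, in 7 of them with a gene on the other strand. Besides Tsp66A the shared part was at most 21.5% of the member's exonic bases, in Tsp42Eo. Among the female-biased members, Tsp86D shared 92 nt with CG6574 (10.3 and 13.7 FPKM) and Tsp66E 173 nt with mfr (0.0259 and 4.97 FPKM), both on the other strand. As deposited, both partners had the higher value in males (log2 ratios −0.39 and −2.54), opposite to the tetraspanin beside them. The part of these overlaps in the values of Tsp86D and Tsp66E was not tested.

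**Figure D5:**
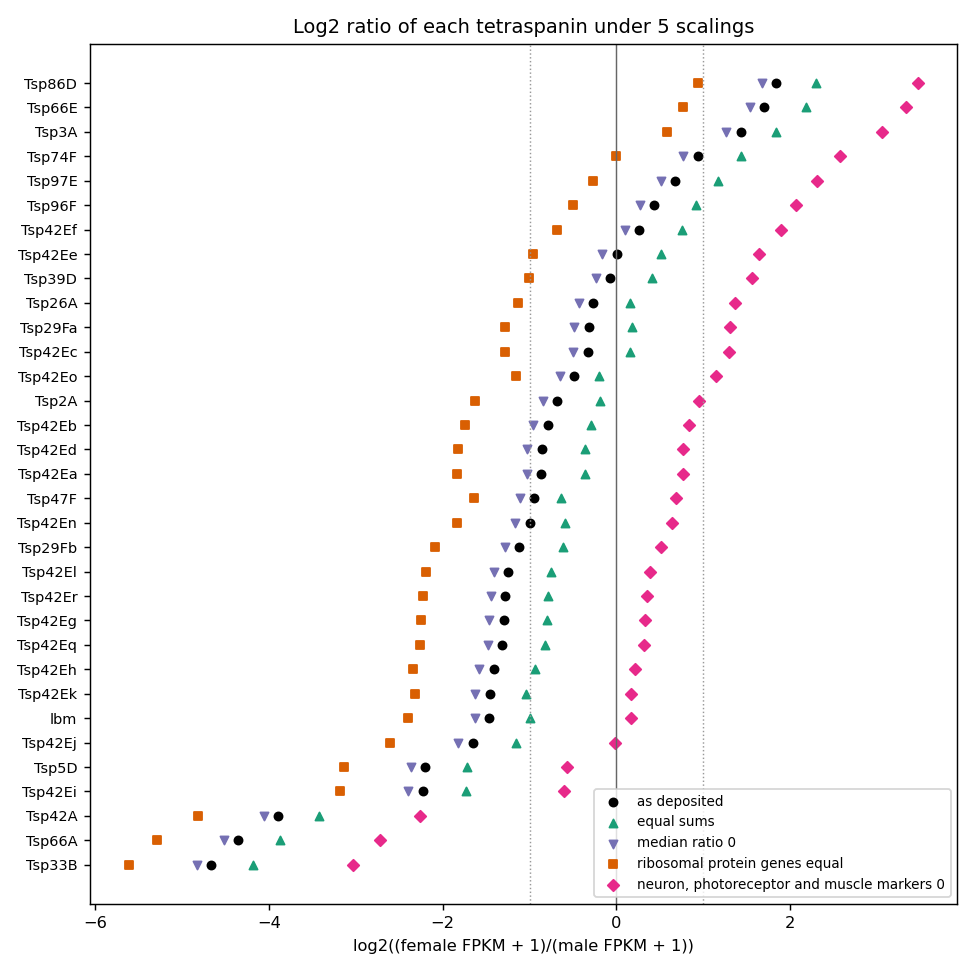
Log2 ratio of the 33 counted tetraspanins as deposited (circles), with libraries set to equal sums (upward triangles), with the median ratio of loci at 1 FPKM in both libraries set to 0 (downward triangles), with ribosomal protein genes set to equal medians (squares), and with the median of the neuron, photoreceptor and muscle markers set to 0 (diamonds), the last chosen after seeing the data. The sign was the same under the first 4 for 24 members and under all 5 for 9, and at least 2-fold higher in males were 7 members under the first 4 and 3 under all 5, while none was at least 2-fold higher in females throughout.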

How the data were processed

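Per the labels' protocols, total RNA of 192 DGRP lines was pooled by sex, and TruSeq libraries were sequenced as paired reads of 100 nt in 1 HiSeq lane. The authors deposited FPKM values per locus and an annotation of transcript models. TopHat2 2.0.8, Cufflinks 2.0.2 and BDGP5 are named in the submitters' processing notes without roles. The reference annotation, use of strand and filters are not given in the sources used here. Coordinates are those of the deposited annotation (BDGP5, counted from 1). Of 35 members, 4 have the same start in the supplied BDGP6 annotation, so its coordinates were not used. 

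FPKM values were used as deposited, with summed FPKM of 669223 (female) and 951735 (male). A common step in low values, which would give fragments, was searched. In the female library 61.0% of 218 checked values lay within 0.15 of a whole step, and in the male library 33.3% of 33 (30% by chance), so fragment numbers were not recovered and depth per value is unknown. Log2 ratios used a pseudocount of 1 FPKM, a minimum of 1 FPKM in 1 library and a 2-fold threshold, with no test, since each sex had 1 library. The planned rule named each member, and other genes from partner and marker lists. Members and lists were chosen with earlier results of these data known. The calling step was tested on simulated data. Python 3.11.15, numpy 2.4.6, pandas 2.3.3, scipy 1.17.1 and matplotlib 3.10.9 were used. Alternatives were other pseudocounts, minimums, scalings and thresholds, and leaving out members with overlapping exons. The scaling on neuron, photoreceptor and muscle markers was added after seeing the data.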

Additional observations from a re-analysis of the deposited data

How the results depend on the processing

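No paired analysis was possible because each sex had 1 library, and no replicate could be left out. With both libraries set to the same sum, 5 members were at least 2-fold higher in females and 7 in males (3 and 14 as deposited), the median log2 ratio of the 42E cluster was −0.75 and that of members outside it 0.17, and the ratios of Tsp39D (0.41), Tsp26A (0.16), Tsp29Fa (0.18) and Tsp42Ec (0.16) became positive. With ribosomal protein genes set to equal medians, 0 and 26 of 34 members were called (0 and 25 of the 33 counted as deposited), the medians were −1.78 for the family, −2.02 for the cluster and −1.21 outside it, and Tsp74F (−0.0099), Tsp97E (−0.27), Tsp96F (−0.50), Tsp42Ef (−0.69) and Tsp42Ee (−0.96) became negative. Setting the median ratio to 0 made Tsp42Ee −0.16. A scaling chosen after seeing the data, with the median of the 14 neuron, photoreceptor and muscle markers set to 0, reversed most directions. It gave 13 calls in females and 3 in males, and medians of 0.76 for the family, 0.39 for the cluster and 1.34 outside it. The ratios of 19 members became positive: Tsp39D (1.56), Tsp26A (1.37), Tsp29Fa (1.31), Tsp42Ec (1.30), Tsp42Eo (1.14), Tsp2A (0.95), Tsp42Eb (0.84), Tsp42Ed (0.77), Tsp42Ea (0.76), Tsp47F (0.69), Tsp42En (0.64), Tsp29Fb (0.51), Tsp42El (0.39), Tsp42Er (0.35), Tsp42Eg (0.33), Tsp42Eq (0.32), Tsp42Eh (0.22), Tsp42Ek (0.17) and lbm (0.17). Requiring 1 FPKM in both libraries removed Tsp33B, Tsp66A and Tsp42A among others and turned the median outside the cluster to 0.18. Leaving out the 11 members with overlapping exons left 1 call in females and 9 in males among 23 counted members. These are 4.35% and 39.1%, against 21.5% and 40.7% of all loci, from which overlapping ones were not left out. A 1.5-fold threshold gave 5 calls in females and 20 in males (29.7% and 49.8% of all loci), and a 4-fold threshold 0 and 5 (7.60% and 20.3%). A pseudocount of 0.1 FPKM and a minimum of 5 FPKM or none moved no count of calls and no median by over 1.5 times. With that pseudocount 3 members were called in females and 16 in males (23.1% and 45.3% of all loci). Tsp47F (−1.76) and Tsp42En (−1.28) were then past 2-fold. The unknown number of fragments limits every value under 1 FPKM.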

Other observations

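A pair of genes outside the naming rule carry a Tsp name among their RefSeq synonyms. TM4SF (2R, 19765720 to 19768383) had 9.32 FPKM in females and 34.5 FPKM in males, a log2 ratio of −1.78. CG31600 (2L, 21914269 to 21915358) was at a listed 0 in females and had 10.4 FPKM in males. In both genes each boundary between coding exons falls between codons, 4 of 4 and 3 of 3, and their first coding exons measure 66 and 45 nt.

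The deposited annotation holds 4 assembled isoforms of 3 members that are not in the reference. Tsp5D has 2 of them, lbm 1 and Tsp42Eh 1. None uses an intron absent from the annotated transcripts. They differ by added exonic bases, 989 nt in lbm, 678 and 174 nt in Tsp5D, and 96 nt in Tsp42Eh. Levels per isoform were not analysed here.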
